A study of Sus scrofa with 80 samples.

Results

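Subcutaneous backfat was compared with the hypothalamus, the adenohypophysis, the thyroid gland and the gonads of the same pigs. The backfat set held 16 of the 80 arrays of the series, chosen as all arrays whose sample title gives backfat as the tissue. The 80 arrays came from 16 pigs with 5 tissues each: 16 arrays of hypothalamus, 16 of adenohypophysis, 16 of thyroid, and gonads that were kept apart as 9 testes and 7 ovaries. The pigs belonged to 4 breeds with 4 animals each. Large White (LW) is a lean sire line, Duroc (DU) was a maternal line, Youli (YL) came from Landrace and a Chinese-European hybrid line, and Iberian (IB) is an unimproved, fat and slow-growing breed. Each breed had 2 males and 2 females, except Youli with 3 males and 1 female. Mean age at slaughter was 87 days in Large White, 83 in Duroc, 80 in Youli and 89 in Iberian, and mean live weight was 27.2, 23.1, 18.9 and 17.4 kg in the same order. All were young pigs on shared diets that had been deprived of feed for 24 h, so that no tissue was sampled in the fed state. The backfat was taken over the loin. The pigs were bought from different breeding companies and brought together at weaning, and the company of each breed is not stated. Breed cannot be told apart from the weight and age that went with it, nor from any difference in origin.

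White adipose tissue stores energy as triglyceride inside adipocytes. Fatty acids reach the cell from circulating lipoproteins through lipoprotein lipase on the capillary wall, or are made in the cell from acetyl groups, and are esterified to glycerol and kept in a lipid droplet. During fasting the droplet is opened by a chain of lipases that releases fatty acids and glycerol to the blood. Adipocytes also secrete hormones such as adiponectin and leptin, and they lie in a collagen-rich matrix with precursor cells, capillaries and macrophages. In the pig this tissue is the main site of fatty acid synthesis, and the domestic pig lacks a working UCP1, the uncoupling protein of brown fat.

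Values are log2 expression from the Affymetrix Porcine GeneChip, so that a difference of 1 is a factor of 2. They carry no detection call. As a guide to background, the Y-linked gene EIF1AY read 2.82 to 3.23 in the 7 female backfat arrays and 9.0 to 9.66 in the 9 male ones, so values under about log2 3 are described as near background. A difference from a group that lies there is a lower bound. Each gene is represented by 1 probeset, the one of highest mean, and 6765 genes with a symbol were tested. Levels of different genes are not compared, since probesets differ in their response. Differences are backfat minus the other group, given with the standard error (SE) of a limma model with breed and sex, and they refer to the nearest other group, the one whose mean lies closest to backfat from the side of the others. The model has 1 residual spread per probeset, shared by all 6 groups. For genes that vary more in backfat than elsewhere, the SE and p can therefore understate the spread among backfat arrays. An example is MYL1, with an SD of 4.20 over backfat. A gene was called where the Benjamini-Hochberg adjusted p was under 0.05 and the difference at least 1, and it was called against every other tissue where this held in all 5 comparisons. The 5 comparisons share the backfat arrays and are not independent of each other.

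The backfat label was borne out by adipocyte genes. Adiponectin (ADIPOQ) read 11.53 to 14.04 in backfat (median 13.16), and FABP4, the fatty acid carrier of adipocytes, read 13.55 to 15.12 (median 14.99). Neither range overlapped with any of the other 64 arrays. The droplet coat protein PLIN1 and the droplet protein CIDEC were not measured with a symbol. Correlations between backfat arrays over all probesets lay between 0.911 and 0.989 with a median of 0.977. Some backfat arrays nevertheless held transcripts of other tissues. Array YLM19, from a Youli male, read 14.65 for the fast skeletal muscle myosin light chain MYL1, and 30 measured muscle genes averaged 12.47 there. It was also the sole backfat array with sperm-lineage transcripts, at 7.55 for the protamine PRM1, 8.55 for CRISP2 and 7.85 for LDHC, each of which read under 3 in the other 15. MYL1 also read 11.51 in DUM12, 10.99 in DUF14, 8.38 in LWF06 and 6.71 in IBF22, against a median of 2.22 over the 16 arrays. The Leydig cell hormone INSL3 read 7.60 in YLM19 and 7.21 in LWF06, the second of which came from a female. The pituitary hormones prolactin (PRL) and the alpha subunit CGA read 7.58 and 6.54 in YLM20. Growth hormone (GH1) read 6.53 in YLM20 and 5.61 in LWM04, where PRL read 3.10. Results are therefore given with all 16 arrays and, where they change, without YLM19 or without the 5 arrays LWF06, DUM12, DUF14, YLM19 and YLM20. LWM04 and IBF22, with less of such transcripts, stayed in that fit and were left out too in a further one, over 9 backfat arrays. In the other direction, thyroid arrays held adipocyte transcripts: ADIPOQ ranged from 1.93 to 10.89 there, highest in DUM12, LWM02 and YLM20, while thyroglobulin (TG) was at 13.81 to 14.63 in all 16. The ovary array of IBF25 also stood apart, with ovary markers at 3.59 on average against a median of 8.38 over the 7 ovaries. How such transcripts reached these arrays was not tested. In whole tissue, fewer cells of a type and less RNA per cell cannot be told apart.

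**Figure D1:**
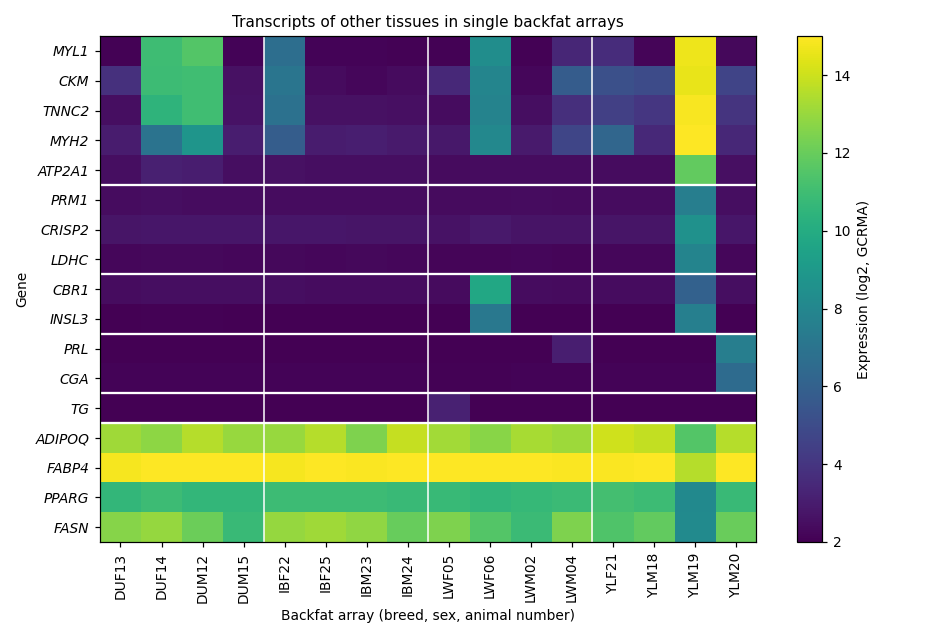
Expression (log2, colour scale) of transcripts of other tissues and of 4 adipocyte genes in each of the 16 backfat arrays, with blocks for skeletal muscle, sperm lineage, Leydig cells, adenohypophysis, thyroid and adipocytes. YLM19 is bright in the muscle, sperm and Leydig blocks (MYL1 14.65, PRM1 7.55) and dimmer than the other arrays for PPARG (8.18) and FASN (8.21). LWF06 is bright in the Leydig block too (CBR1 9.80, INSL3 7.21). DUM12, DUF14, LWF06 and IBF22 carry muscle transcripts at lower levels, and YLM20 alone carries CGA.

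Backfat was higher than every other tissue for 335 genes, 4.95% of the 6765 tested, and lower than every other tissue for 106, or 1.57%. Of the 335, 109 had several probesets. Another probeset was also higher than every other tissue for 68 of these, and lower than some tissue for 4. Of the 106, 42 had several probesets. Another probeset was also lower than every other tissue for 15 of these, and higher than some tissue for 0. The remaining calls rest on 1 probeset. Against single tissues, 1301 genes (19.2%) were higher and 1026 (15.2%) lower than in the hypothalamus, and 1194 (17.6%) were higher and 980 (14.5%) lower than in the adenohypophysis. The counts were 835 (12.3%) and 745 (11.0%) against the thyroid, 956 (14.1%) and 1013 (15.0%) against the testis, and 883 (13.1%) and 940 (13.9%) against the ovary. Fewest genes differed from the thyroid. For 117 of the 335 higher genes the thyroid was also the nearest group, followed by the ovary for 86, the testis for 63, the hypothalamus for 48 and the adenohypophysis for 21. For 96 of the 335 every backfat array lay above every other array, a pattern that 102 of all genes showed (1.51%). Leaving YLM19 aside it was 153, and 173 of all genes (2.56%). Without YLM19 in the fit, 353 genes were higher than every other tissue (5.22%) and 111 lower (1.64%), of which 333 and 103 were shared with all arrays. Without the 5 arrays it was 350 (5.17%) and 107 (1.58%), and without LWM04 and IBF22 as well 348 (5.14%) and 107 (1.58%). Without the ovary array of IBF25, 325 of the 6765 genes were higher and 106 lower, of which 321 and 106 were shared with all arrays. Centring each array on its median moved the median difference of all probesets from 0.04 to 0.06 up to 0.17 to 0.31. Against the ovary it moved the counts from 883 higher and 940 lower to 1174 higher (17.4%) and 718 lower (10.6%), and against the testis from 956 and 1013 to 1104 (16.3%) and 869 (12.8%). Quantile normalization gave 973 (14.4%) and 964 (14.2%) against the testis, so the balance of higher and lower genes against both gonads depends on the scaling. Against every other tissue, centring gave 408 higher (6.03%) and 85 lower (1.26%).

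The lists below group genes by role. Lists and members were chosen with earlier results of these data known, so the shares describe the lists and test nothing. Genes in several lists, such as LPL and ENG, are counted in each. For each, the count of members higher than every other tissue stands beside the 4.95% of all genes, and the median difference of the list over the 5 comparisons beside that of all genes, which ran from 0.02 to 0.09. The shares were highest for endothelial genes (9 of 17), lipid uptake and droplet genes (9 of 18) and extracellular matrix (16 of 33), and several lists had no member higher than every other tissue. This order leaves out mast cells, with 2 measured genes of which 1 was higher. Leaving out YLM19, the 5 arrays or the 7 arrays moved the other counts by at most 1, except for skeletal muscle and branched-chain amino acid breakdown.

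**Figure D2:**
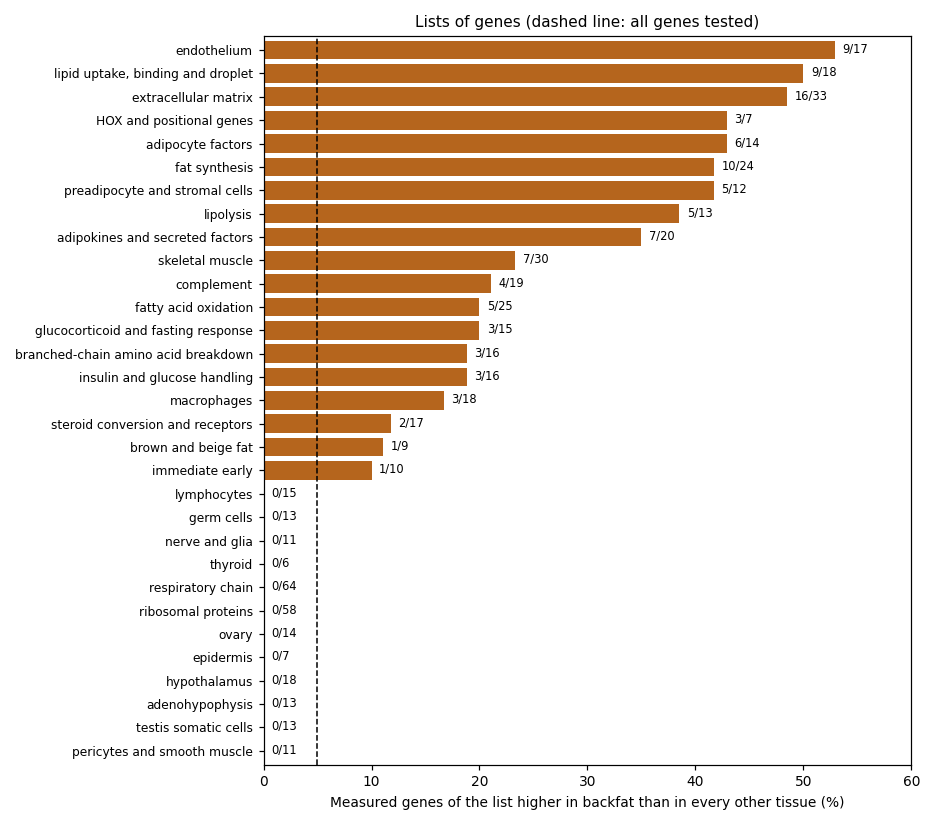
Share of the measured genes of each list but mast cells, which has 2 measured genes (percent, x axis), that were higher in backfat than in every other tissue, with the count of higher over measured genes beside each bar and the 4.95% of all 6765 genes as a dashed line. Endothelium (9/17), lipid uptake (9/18) and extracellular matrix (16/33) lead among these. Respiratory chain (0/64) and ribosomal proteins (0/58) have none, and the 7/30 for skeletal muscle fell to 0 without 5 backfat arrays. Lists and members were chosen with earlier results of these data known.

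Of the hormones and other factors that adipose tissue secretes, 7 of 20 measured genes were higher than in every other tissue and none lower, with median differences of 0.95 to 3.20. ADIPOQ, the insulin-sensitising hormone adiponectin, read 11.53 to 14.04 in backfat (median 13.16) against 1.93 to 10.89 (median 6.63) in the thyroid. It stayed at 1.94 to 2.10 in the hypothalamus and was near background in the adenohypophysis and both gonads too. Every backfat array was above every other array, and the difference from the thyroid was 6.69 ± 0.40 (SE, largest adjusted p of the 5 = 9.40e-25). Without the 3 thyroid arrays DUM12, LWM02 and YLM20 it was 7.54. Complement factor D (CFD, adipsin), a protease first known from fat cells, read 10.31 to 11.99 in backfat (median 11.08) and 7.52 to 9.42 (median 8.36) in the thyroid, 2.73 ± 0.23 (SE, largest adjusted p of the 5 = 5.59e-15) apart, while the highest array of another tissue reached 11.13, within the backfat range. ANGPTL4, a fasting-induced inhibitor of lipoprotein lipase, read 10.09 to 11.92 in backfat (median 11.51) and 8.24 to 10.06 (median 9.44) in the thyroid, with no overlap, and the difference was 2.04 ± 0.25 (SE, largest adjusted p of the 5 = 3.34e-11). The vasodilator peptide ADM, the chemokine CCL2 and the growth factor IGF1 were higher by 2.20 ± 0.34 than the ovary, 1.34 ± 0.34 than the thyroid and 1.16 ± 0.27 than the ovary, with overlap between the groups in each.

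Leptin (LEP), the satiety hormone of fat cells, was low in most backfat arrays. It read 2.44 to 6.18 in backfat (median 2.72), and the median lay near background. The highest values were 6.18 in IBF22, 6.03 in LWM04 and 5.44 in YLF21. The difference from the testis, 0.88 ± 0.27 (SE, adjusted p = 0.00383), missed the minimum of 1, while LEP was called higher than in the other 4 groups, all of which lay near background. Angiotensinogen (AGT) was at 10.42 to 13.25 in backfat (median 12.41) and at 10.81 to 12.90 (median 12.02) in the testis, a difference of 0.10 ± 0.50, which was not called. The retinol carrier RBP4 was called against 4 groups and not against the adenohypophysis (0.31 ± 0.22). Apolipoprotein E (APOE) read 10.46 to 13.13 in backfat (median 12.39) and 12.78 to 13.42 (median 13.12) in the hypothalamus, -0.84 ± 0.21 apart. Resistin (RETN), TNF, IL6 and ANGPTL2 read near background in all 6 groups, where no difference can be seen.

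**Figure D3:**
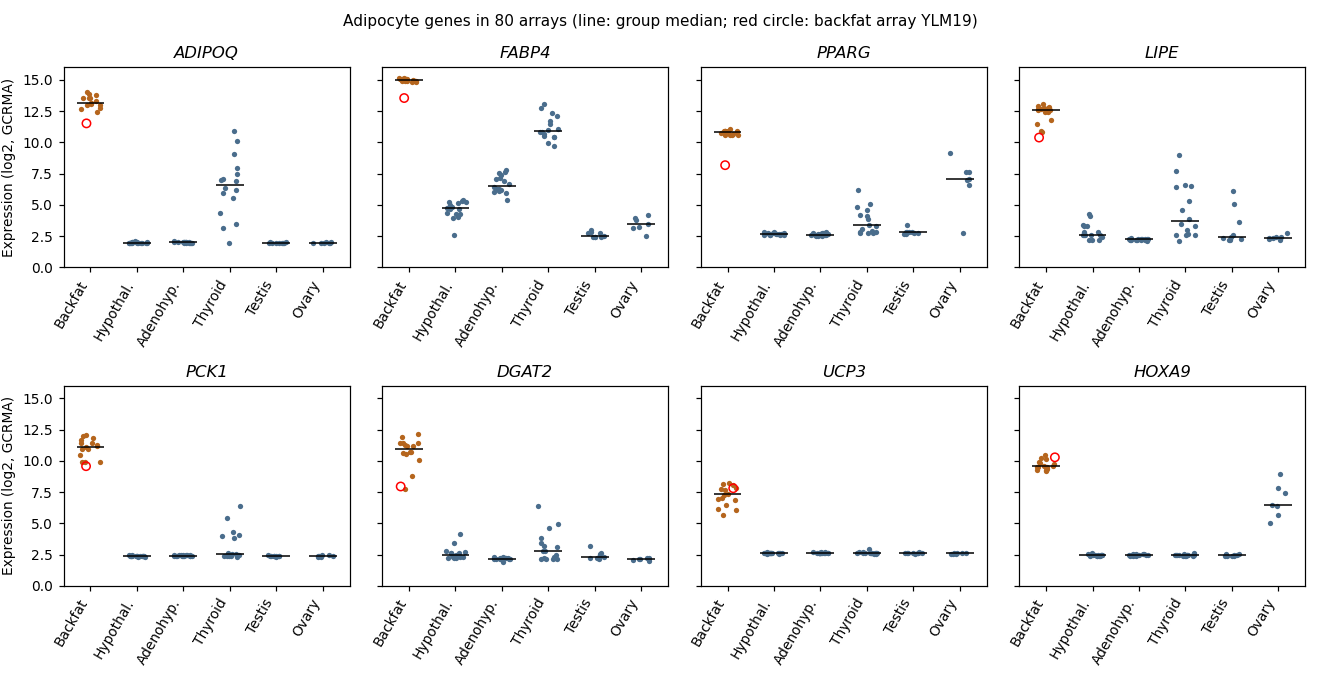
Expression (log2, y axis) of 8 genes in all 80 arrays by tissue, 1 point per array, with the line at the group median and a red circle for backfat array YLM19. Backfat lies above every other array for ADIPOQ, FABP4, LIPE, PCK1, DGAT2, UCP3 and HOXA9, the thyroid spreads widely for ADIPOQ (1.93 to 10.89), and for PPARG YLM19 (8.18) falls below the highest ovary array (9.15).

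Among the transcription factors of adipocytes, 6 of 14 measured genes were higher than in every other tissue, with median differences of 1.45 to 2.25. PPARG, the master regulator of adipocyte formation, read 8.18 to 11.11 in backfat (median 10.83). The nearest group was the ovary at 2.79 to 9.15 (median 7.03), and the difference was 3.80 ± 0.38 (SE, largest adjusted p of the 5 = 4.71e-14). The other 15 backfat arrays started at 10.58 and were above all other arrays, while YLM19 at 8.18 was not. CEBPA, its partner in differentiation, read 4.0 to 8.54 in backfat (median 7.02) and near background in most other arrays, with 2.37 to 3.53 (median 2.55) in the hypothalamus and a difference of 4.37 ± 0.18 (SE, largest adjusted p of the 5 = 5.50e-28). The lowest backfat value, 4.0, came from YLM19 and still lay above every other array. CEBPB, which acts early in differentiation, was at 11.71 to 12.58 in backfat (median 12.02) against 8.03 to 10.86 (median 9.40) in the testis, 2.68 ± 0.22 higher. KLF4 was 2.42 ± 0.23 above the testis, the glucocorticoid-responsive factor KLF15 1.53 ± 0.20 above the hypothalamus and the liver X receptor NR1H3 1.74 ± 0.13 above the thyroid. KLF4 and NR1H3 showed no overlap between backfat and the other arrays, whereas KLF15 did. CEBPD was not called against the thyroid (-0.23 ± 0.24). SREBF1, the regulator of lipid synthesis, RXRA and PPARA were near background in all 6 groups on their probesets. PPARGC1A, the coactivator of mitochondrial biogenesis, read 2.46 at the median and 7.61 in YLM19, and it was lower than the hypothalamus, with a difference of -5.22 ± 0.25.

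Genes of lipid uptake, binding and the droplet followed, with 9 of 18 higher than in every other tissue and median differences of 1.88 to 2.94. Lipoprotein lipase (LPL), which frees fatty acids from lipoproteins, read 11.08 to 13.25 in backfat (median 12.84) against 3.03 to 10.89 (median 6.57) in the thyroid, and the difference was 5.87 ± 0.39 (SE, largest adjusted p of the 5 = 1.64e-18). GPIHBP1, the capillary protein that anchors LPL, read 6.32 to 8.38 in backfat (median 7.96) and 2.34 to 4.31 (median 2.66) in the thyroid, with a difference of 4.83 ± 0.14 (SE, largest adjusted p of the 5 = 2.25e-36). Neither gene had a backfat array within the range of the others. FABP4 differed from the thyroid by 3.71 ± 0.23 (SE, largest adjusted p of the 5 = 1.14e-23), with 9.75 to 13.08 (median 10.92) in the thyroid and 2.52 to 4.23 (median 3.49) in the ovary. The related carriers FABP5 and FABP3 were 1.88 ± 0.17 above the thyroid and 2.63 ± 0.42 above the testis. The caveolae proteins CAV1 and CAV2, abundant in the adipocyte membrane, were 2.32 ± 0.24 above the ovary and 2.80 ± 0.15 above the adenohypophysis. AQP3, a channel that passes glycerol, was 2.79 ± 0.26 above the hypothalamus. None of these 5 genes, nor FABP4, overlapped with other tissues. CIDEA, a droplet protein that enlarges droplets and is known from brown fat in rodents, read 8.36 to 10.78 in backfat (median 10.20) against 6.95 to 8.28 (median 7.73) in the testis, 2.46 ± 0.30 (SE, largest adjusted p of the 5 = 8.26e-11) higher. PLIN2, a droplet coat protein found in most tissues, went the other way in the thyroid. It read 6.40 to 8.65 in backfat (median 7.91) and 9.60 to 12.23 (median 10.69) in the thyroid, a difference of -3.18 ± 0.21 (adjusted p = 3.42e-23). PLIN3 was lower than in the thyroid (-1.23 ± 0.13) and the testis (-1.51 ± 0.16), and the cholesterol transporter NPC1 was lower than in the hypothalamus (-2.65 ± 0.23).

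Of 24 measured genes of fat synthesis, 10 were higher than in every other tissue and none lower, with median differences of 0.87 to 2.60. PCK1, which makes glycerol 3-phosphate for esterification in fat cells, read 9.58 to 12.11 in backfat (median 11.14) against 2.34 to 6.38 (median 2.56) in the thyroid. The difference of 7.69 ± 0.24 (SE, largest adjusted p of the 5 = 1.16e-35) was the largest of all 335 genes, beside that of LIPE below. DGAT2, which adds the last fatty acid of triglyceride, read 7.72 to 12.14 in backfat (median 10.96) against 2.13 to 6.35 (median 2.80) in the thyroid, with a difference of 7.40 ± 0.30 (SE, largest adjusted p of the 5 = 2.41e-30). The lowest backfat values were 7.72 in DUM15 and 7.95 in YLM19. LPIN1, the phosphatidate phosphatase one step earlier, was 4.70 ± 0.21 and pyruvate carboxylase (PC) 3.84 ± 0.22 above the hypothalamus. Like PCK1 and DGAT2, both stood above every other array. Fatty acid synthase (FASN) read 8.21 to 13.16 in backfat (median 12.04) against 9.35 to 10.10 (median 9.72) in the testis, with a difference of 2.12 ± 0.27 (SE, largest adjusted p of the 5 = 3.05e-10). All backfat arrays but YLM19 (8.21) were above every other array. The elongase ELOVL6 was 2.20 ± 0.44 above the ovary and malic enzyme (ME1), a source of NADPH, 1.67 ± 0.28 above the hypothalamus. AGPAT1, DGAT1 and ACSS2 were higher by 2.30 ± 0.31, 1.39 ± 0.23 and 1.05 ± 0.20, with overlap. The desaturase SCD spread most. It read 7.09 to 14.21 in backfat (median 12.09), while the hypothalamus was at 11.70 to 12.99 (median 12.06). The differences of -0.56 ± 0.42 from the hypothalamus and 0.79 ± 0.51 from the testis were not called, and SCD was called higher than in the other 3 groups. The pentose phosphate enzyme PGD was lower than in the testis (-1.32 ± 0.19), transketolase (TKT) missed the minimum of 1 there (0.95 ± 0.15), and the acyl-CoA synthetase ACSL1 did not pass against the thyroid (0.05 ± 0.14). The desaturases FADS1 and FADS2 were lower than in the hypothalamus, with differences of -2.97 ± 0.16 and -1.99 ± 0.27. ACACA, the first committed enzyme of the pathway, read 2.41 to 3.46 in backfat (median 2.48) on its probeset, close to background, and differed by -0.41 ± 0.15 from the testis.

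Among 13 measured genes of lipolysis, the 5 enzymes and cofactors that act on the droplet were higher than in every other tissue, and the median difference of the list was 0.03 to 0.22. Hormone-sensitive lipase (LIPE) read 10.39 to 13.07 in backfat (median 12.59) against 2.13 to 9.02 (median 3.68) in the thyroid, with a difference of 7.68 ± 0.40 (SE, largest adjusted p of the 5 = 2.93e-26). PNPLA2, the lipase that starts triglyceride breakdown, read 11.46 to 13.25 in backfat (median 12.84) against 8.35 to 10.68 (median 9.16) in the thyroid, with a difference of 3.63 ± 0.13 (SE, largest adjusted p of the 5 = 2.00e-35). Its coactivator ABHD5 was 3.90 ± 0.24 above the testis, and MGLL, which completes the release of glycerol, 1.65 ± 0.14 above the hypothalamus. LIPE, PNPLA2 and ABHD5 had no overlap with other arrays and MGLL did. PNPLA3 varied widely, at 2.78 to 8.25 in backfat (median 4.77), and was 1.96 ± 0.30 (SE, largest adjusted p of the 5 = 2.68e-06) above the hypothalamus. The remaining 8 genes code for receptors and signalling proteins. The beta receptors ADRB1 and ADRB3 and the alpha receptor ADRA2A read near background in backfat. The inhibitory G protein GNAI1 read 9.96 to 11.93 in backfat (median 11.66), 0.77 ± 0.13 from the hypothalamus, which missed the minimum of 1. The kinase subunit PRKACB was lower than in the hypothalamus (-2.75 ± 0.06) and the testis (-1.99 ± 0.08).

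In fatty acid oxidation, 5 of 25 genes were higher than in every other tissue, with median differences of 0.64 to 1.42. The thiolase ACAA1 read 10.26 to 12.61 in backfat (median 12.16) against 8.52 to 9.65 (median 8.87) in the thyroid, with a difference of 3.11 ± 0.13 (SE, largest adjusted p of the 5 = 6.89e-34). HADH and ACAA2 were 1.12 ± 0.10 and 1.05 ± 0.12 above the thyroid, and the electron carrier ETFDH 1.40 ± 0.11 above the testis. UCP3, a mitochondrial carrier best known from muscle, read 5.68 to 8.21 in backfat (median 7.32) and at most 2.95 in the thyroid, with all other groups near background. The difference of 4.56 ± 0.12 (SE, largest adjusted p of the 5 = 1.19e-37) is a lower bound. Of the arrays with muscle transcripts, YLM19 read 7.81, IBF22 8.13, LWF06 7.35, DUF14 6.48 and DUM12 5.68, the last being the lowest backfat value, and the arrays with MYL1 under log2 3 read 6.04 to 8.21. The part of muscle in this result was not tested. CPT1A, the gate for fatty acid entry into mitochondria, was lower than in the thyroid (-1.48 ± 0.08), as was ACADL (-1.19 ± 0.11), and HSD17B4 was lower than in the testis (-1.07 ± 0.14). PDK4, which is induced by fasting, read 12.48 to 13.88 in backfat (median 13.01) and was 0.51 ± 0.19 from the thyroid, which missed the minimum of 1. Of 9 genes linked to brown or beige fat, CIDEA was the one called higher than every other tissue, with medians of 0.03 to 0.19. ELOVL3 and DIO2 read near background in backfat. In the respiratory chain 0 of 64 genes and among ribosomal proteins 0 of 58 were higher than in every other tissue, with medians of -0.32 to 0.25 and -0.23 to 0.63.

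For insulin signalling and glucose handling, 3 of 16 genes were higher than in every other tissue, with medians of 0.05 to 0.57. GRB10, an adaptor that dampens insulin receptor signalling, read 8.13 to 10.30 in backfat (median 9.23) against 6.06 to 7.48 (median 6.66) in the ovary, with a difference of 2.51 ± 0.24 (SE, largest adjusted p of the 5 = 1.07e-14). The kinases AKT2 and AKT1 were 2.14 ± 0.12 above the thyroid and 1.15 ± 0.20 above the ovary. On their probesets, the insulin-responsive glucose transporter SLC2A4 and the docking protein IRS1 read near background in all 6 groups. SLC2A4 read 2.31 in YLM19 too, the array with most muscle transcripts. Whether these probesets report their transcripts was not tested, so absence cannot be read from the values. The brain-type transporter SLC2A1 was lower than in the hypothalamus (-3.56 ± 0.17). The fructose transporter SLC2A5 read 2.28 to 9.88 in backfat (median 5.33) and 5.22 to 7.80 (median 7.11) in the hypothalamus. It was called lower than there, with a difference of -1.21 ± 0.53 (SE, adjusted p = 0.0347 in limma), and higher than in the other 4 groups. These were near background at the median, and the testis reached 8.32. The SE of SLC2A5 comes from a spread shared with these quiet groups and can understate that of backfat. Its Iberian backfat arrays, at 7.86 to 9.88, lay above every hypothalamus array. In branched-chain amino acid breakdown 3 of 16 were higher than in every other tissue, 4 without YLM19, 5 without the 5 arrays and 3 without 7, with medians of 0.53 to 1.32. OXCT1, which also opens ketone body use, was 1.16 ± 0.15, ACADSB 1.13 ± 0.12 and ACAD8 1.18 ± 0.10 above the nearest group. BCKDHB, BCKDHA and BCAT2 were lower than in the testis, with differences of -3.33 ± 0.20, -1.02 ± 0.16 and -3.98 ± 0.25. Of 17 genes of steroid conversion and hormone reception, HSD17B12 (1.05 ± 0.11 above the hypothalamus) and the growth hormone receptor GHR were higher than in every other tissue, with medians of 0.05 to 0.62. GHR read 8.43 to 10.47 in backfat (median 9.80) against 6.03 to 7.98 (median 6.99) in the thyroid, with a difference of 2.81 ± 0.18 (SE, largest adjusted p of the 5 = 4.35e-23). Of 15 genes that respond to glucocorticoids or fasting, ANGPTL4, PCK1 and the phosphatase DUSP1 were higher than in every other tissue, with medians of 0.57 to 1.53. Of 10 immediate early genes ZFP36 was, and 2 were without the 7 arrays, with medians of 0.17 to 2.08. All tissues came from fasted animals, so no fed state stands beside these values.

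The 15 genes of largest difference included ADIPOQ, LPL, PCK1, DGAT2 and LIPE, given above, and 10 genes outside those lists of lipid metabolism. RBP7, an intracellular retinol carrier, read 9.0 to 11.73 in backfat (median 10.89) against 2.43 to 7.28 (median 2.71) in the thyroid, with a difference of 6.88 ± 0.32 (SE, largest adjusted p of the 5 = 1.25e-26). MYOC, the secreted protein myocilin known from the eye, read 10.10 to 12.38 in backfat (median 11.17) against 2.65 to 8.58 (median 4.15) in the thyroid, with a difference of 6.10 ± 0.37 (SE, largest adjusted p of the 5 = 6.98e-25). Its value in YLM19 was 12.35, close to the highest. The amino acid transporter SLC36A2 read 6.82 to 9.44 in backfat (median 8.22) and at most 3.21 in the testis, 5.70 ± 0.15 apart. The prostaglandin E receptor PTGER3, which lowers cyclic AMP, read 6.03 to 9.44 in backfat (median 7.92) against 2.53 to 5.36 (median 2.78) in the testis, 4.94 ± 0.26 apart, and the matrix protein CILP 8.87 to 10.47 in backfat (median 9.59) against 2.09 to 7.73 (median 3.53) in the testis, 5.37 ± 0.30 apart. None of these 5 genes overlapped with other arrays. CYP2A19, a porcine cytochrome P450, read 2.87 to 9.52 in backfat (median 7.55). The lowest backfat value was close to background, yet every other group stayed there throughout, so the difference of 4.97 ± 0.34 is a lower bound. The lactonase PON3 ranged from 5.42 to 12.18 in backfat and reached 10.02 in an ovary array, with a difference of 5.58 ± 0.59 (SE, largest adjusted p of the 5 = 3.41e-13). The esterase CES1 was 5.05 ± 0.54 above the testis, with overlap. The lectins FCN2 and CD209, the second a receptor of macrophages and dendritic cells, read 6.60 to 12.14 (median 10.59) and 6.52 to 10.13 (median 8.60) in backfat, 5.50 ± 0.35 and 5.38 ± 0.28 above the thyroid. FCN2 was lowest in YLM19 (6.60) and had no overlap in the other 15 arrays.

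Extracellular matrix made up a large group, with 16 of 33 genes higher than in every other tissue and median differences of 1.37 to 4.64. POSTN, a matrix protein of connective tissue, read 12.15 to 13.56 in backfat (median 13.16) against 8.43 to 9.97 (median 9.47) in the adenohypophysis, with a difference of 3.56 ± 0.55 (SE, largest adjusted p of the 5 = 2.96e-08). Fibronectin (FN1) was 2.35 ± 0.32 and the collagen VI chain COL6A3 1.52 ± 0.27 above the ovary. Fibrillin (FBN1) was 1.98 ± 0.22 above the testis, asporin (ASPN) 3.28 ± 0.22 above the thyroid and the thrombospondin THBS2 3.07 ± 0.24 above the ovary. All but COL6A3 of these 6 were clear of every other array. Several fibrillar collagens overlapped with the ovary, such as COL1A2 at 7.98 to 11.39 in backfat (median 9.56) against 7.34 to 9.20 (median 8.26) in the ovary, with a difference of 1.29 ± 0.34 (SE, largest adjusted p of the 5 = 0.000806). MFAP5, a microfibril protein, was 4.5 ± 0.38 (SE, largest adjusted p of the 5 = 1.43e-17) above the thyroid, where it ranged from 2.73 to 11.05.

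Of 12 genes of precursor and stromal cells 5 were higher than in every other tissue, with medians of 1.17 to 1.99. ENG, among these 5, was also counted with the endothelial genes. PRRX1, a factor of mesenchymal precursors, read 6.01 to 8.81 in backfat (median 7.46) against 3.51 to 7.01 (median 5.03) in the ovary, with a difference of 2.51 ± 0.26 (SE, largest adjusted p of the 5 = 2.66e-13). The surface protein THY1 was 1.65 ± 0.26 above the hypothalamus on the probeset used. Another probeset of THY1 was lower than in some tissue, so its direction depends on the probeset. CD34 and BMP4 were 1.10 ± 0.15 above the testis and 1.37 ± 0.17 above the ovary. HOX genes carry the position of a tissue along the body axis, and 3 of 7 were higher than in every other tissue, with medians of -0.13 to 2.76. The lowest median was that against the ovary, where 3 were higher and 2 lower. HOXA9, a gene of posterior position, read 9.22 to 10.46 in backfat (median 9.58) and near background in the hypothalamus, adenohypophysis, thyroid and testis, and 5.01 to 8.95 (median 6.46) in the ovary, with a difference of 2.88 ± 0.20 (SE, largest adjusted p of the 5 = 1.17e-20). HOXA3 and HOXB7 were 2.36 ± 0.40 and 1.12 ± 0.19 above the ovary.

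Genes of blood and lymph vessels were higher than in every other tissue in 9 of 17 cases, with median differences of 1.36 to 3.95. The mean of the list ran from 6.82 to 8.71 in the backfat arrays and from 6.08 to 7.09 in the thyroid, the next highest group, with the lowest backfat value in YLM19. The endothelial cadherin CDH5 read 9.08 to 10.83 in backfat (median 10.51) against 8.37 to 9.29 (median 8.81) in the thyroid, with a difference of 1.59 ± 0.15 (SE, largest adjusted p of the 5 = 8.18e-16). The junction protein ESAM was 1.94 ± 0.14 above the thyroid, RAMP2, which makes an adrenomedullin receptor, 1.60 ± 0.14 above the hypothalamus, and von Willebrand factor (VWF) 1.33 ± 0.22 above the testis. Endothelial nitric oxide synthase (NOS3) read 5.55 to 8.22 in backfat (median 7.80), 2.83 ± 0.27 above the testis. LYVE1, a receptor of lymphatic vessels and some macrophages, was 2.37 ± 0.38 above the ovary. Of 11 genes of pericytes and smooth muscle 0 were higher or lower than in every other tissue, with medians of -0.64 to 3.14. Of these, 8 were higher than in the hypothalamus, 9 than in the adenohypophysis, 6 than in the thyroid and 5 than in the testis, while 4 were lower than in the ovary.

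Of 18 macrophage genes 3 were higher than in every other tissue, with medians of 0.08 to 1.60. The haemoglobin scavenger receptor CD163 read 7.59 to 9.84 in backfat (median 9.11) against 5.31 to 9.01 (median 6.41) in the thyroid, with a difference of 2.27 ± 0.30 (SE, largest adjusted p of the 5 = 4.32e-10). The mannose receptor MRC1 was 1.38 ± 0.32 above the ovary and GPNMB 2.37 ± 0.37 above the thyroid, with overlap in each. Without the ovary array of IBF25, MRC1 fell to 0.92 and IGF1 to 0.94, both under the minimum of 1. Lymphocyte genes higher than in every other tissue were 0 of 15, and 9 of these were under log2 3 in all groups. Of 2 measured mast cell genes, the receptor subunit MS4A2 was higher than in every other tissue, 1.65 ± 0.21 above the thyroid, and KIT was lower than in the thyroid (-1.93 ± 0.22), with list medians of -0.14 to 2.21. Complement genes moved both ways, with 4 of 19 higher and 2 lower than in every other tissue and medians of 0.07 to 1.81. C4BPA, a regulator of complement, read 11.36 to 13.32 in backfat (median 12.58) against 7.53 to 11.82 (median 9.63) in the thyroid, with a difference of 3.01 ± 0.39 (SE, largest adjusted p of the 5 = 3.43e-10). C1S and C2 were 1.55 ± 0.30 and 2.92 ± 0.35 above the ovary. The central component C3 read 4.88 to 8.69 in backfat (median 7.33) against 7.34 to 10.11 (median 8.65) in the testis, a difference of -1.55 ± 0.33 (SE, largest adjusted p of the 5 = 3.59e-05), and clusterin (CLU) was -2.77 ± 0.25 (SE, largest adjusted p of the 5 = 6.39e-16) against the ovary.

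Skeletal muscle genes were higher than in every other tissue in 7 of 30 cases with all arrays, in 6 without YLM19 and in 0 without the 5 arrays named above. MYL1 read 2.06 to 14.65 in backfat (median 2.22), and its difference from the thyroid was 2.74 ± 0.68 (SE, largest adjusted p of the 5 = 0.00435). Without the 5 arrays it was 0.61, and without 7 it was 0.12. MYLPF went from 2.48 to 0.43 and MYH2 from 2.33 to 0.82. ACTN2 lost its call without YLM19 alone, at 0.68. The list mean was 2.52 to 12.47 over the backfat arrays and 2.76 at the median, against 2.71 to 3.18 in the thyroid. The 10 genes in which YLM19 exceeded the other 15 backfat arrays most were ATP2A1, ACTC1, FITM1, CAPN3, ABRA, RTN2, TMOD4, MYF6, COX8H and RYR1, most of which are known from striated muscle. The muscle calcium pump ATP2A1 read 11.86 there and 2.47 at the median, and the calcium channel RYR1 12.51 and 2.0. Adipocyte transcripts were lower in the same array. YLM19 was the lowest backfat array for 179 of the 335 higher genes (53.4%) and for 23.8% of all genes. Without it the median SD over backfat arrays went from 0.65 to 0.53 for the 335 and from 0.33 to 0.28 for all genes. DUF14 and DUM12, where 22 and 21 of the 30 muscle genes exceeded log2 6, kept FABP4 at 15.12 and 14.95 and PPARG at 10.89 and 10.59, within the range of the other arrays. No gene was higher than in every other tissue in the lists of germ cells (13 genes), testis somatic cells (13), ovary (14), thyroid (6), adenohypophysis (13), hypothalamus (18), nerve and glia (11) or epidermis (7).

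The 106 genes that were lower in backfat than in every other tissue came mostly from outside the lists, with 3 of them in one, and 22 had a backfat mean under log2 3. For 34 of the 106 every backfat array lay below every other array, a pattern that 45 of all genes showed (0.665%). SPOCK3, a secreted proteoglycan of the testican family, read 2.23 to 3.84 in backfat (median 2.44) against 7.87 to 10.29 (median 9.81) in the testis, and the difference of -7.00 ± 0.44 (SE, largest adjusted p of the 5 = 1.64e-21) was the largest in this direction. A single ovary array at 2.47 fell into the backfat range. The ubiquitin ligase RNF128 read 3.19 to 7.59 in backfat (median 4.32) against 9.37 to 10.56 (median 9.74) in the ovary, with a difference of -5.09 ± 0.32 (SE, largest adjusted p of the 5 = 5.12e-23) and no overlap. Its highest backfat value was that of YLM19. FAM84A read 2.61 to 4.95 in backfat (median 2.70) and differed from the hypothalamus by -5.07 ± 0.28 (SE, largest adjusted p of the 5 = 3.50e-25). C1H14orf37, CCDC181 and the microtubule protein SLAIN1 were lower too, with differences of -4.03 ± 0.21, -3.82 ± 0.31 and -3.38 ± 0.25 from the nearest group. Monoamine oxidase B (MAOB), which breaks down amine transmitters, read 2.20 to 3.41 in backfat (median 2.49) against 4.93 to 6.80 (median 6.31) in the testis, with a difference of -3.61 ± 0.19 (SE, largest adjusted p of the 5 = 6.48e-28) and no overlap. The receptor tyrosine kinase TYRO3 read 1.86 to 3.04 in backfat (median 2.16) against 3.98 to 6.77 (median 5.42) in the thyroid, again with no overlap. The protease inhibitor A2M read 1.81 to 6.90 in backfat (median 3.75) against 6.14 to 8.45 (median 8.07) in the hypothalamus, with overlap. The desmosome protein PERP, a gene of epithelia, read 1.96 to 6.36 in backfat (median 2.15) against 4.60 to 7.27 (median 6.22) in the hypothalamus, and the difference was -3.55 ± 0.29 (SE, largest adjusted p of the 5 = 2.46e-18). For genes near background in backfat these differences are lower bounds as well.

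Within backfat, the breeds and the sexes were compared over the 16 arrays. The moderated F test over the 4 breeds, with sex in the model, passed for 196 of 23999 probesets (0.817%), and among genes for 45 of 6765 (0.665%). Of the 335 genes higher in backfat than in every other tissue 2 passed, and of the 106 lower genes 1. Without the 7 arrays with transcripts of other tissues 3 probesets passed over the remaining 9 arrays, and 2426 had an unadjusted p under 0.05 in limma. Without YLM19 the counts were 414 probesets, 116 genes (1.71%) and 6 of the 335, and leaving out single arrays gave 48 probesets without LWM04 and 49 without YLF21, so the number of breed calls rests on single animals. ZBP1, a sensor of foreign nucleic acid, averaged 5.21 ± 0.18 in Large White, 6.25 ± 0.41 in Duroc, 4.48 ± 0.40 in Youli and 5.64 ± 0.36 in Iberian (SD, n = 4 each), with an adjusted p of 0.032 in limma. PDHA1, a subunit of pyruvate dehydrogenase, averaged 8.38 ± 0.20 in Large White, 8.53 ± 0.22 in Duroc, 9.07 ± 0.19 in Youli and 9.09 ± 0.23 in Iberian, with an adjusted p of 0.0441. When single arrays were left out, the highest adjusted p was 0.077 for ZBP1 and 0.103 for PDHA1, so neither call held throughout. The other 8 of the 10 highest-ranking genes among the 335 did not pass over all 16 arrays. The 6 that passed without YLM19 are not named here. The Youli means here include YLM19, which read 7.81 for UCP3, 9.37 for SAL1, 10.96 for IGF2 and 5.19 for MS4A2. UCP3 averaged 7.30 ± 0.32 in Large White, 6.10 ± 0.33 in Duroc, 7.72 ± 0.50 in Youli and 7.71 ± 0.54 in Iberian (adjusted p = 0.0539 in limma). The lipocalin SAL1 averaged 11.99 ± 0.64 in Large White, 11.99 ± 2.35 in Duroc, 10.49 ± 1.02 in Youli and 7.53 ± 0.77 in Iberian (adjusted p = 0.0674 in limma), and all 4 Iberian pigs read 6.45 to 8.15, below the other 12. The growth factor IGF2 averaged 10.38 ± 0.67 in Large White, 11.54 ± 0.28 in Duroc, 10.87 ± 0.71 in Youli and 9.56 ± 0.25 in Iberian (adjusted p = 0.0804 in limma). The 4 Duroc arrays lay at 11.26 to 11.80 and the Iberian ones at 9.33 to 9.88. The mast cell gene MS4A2 averaged 6.18 ± 0.31 in Large White, 7.80 ± 0.84 in Duroc, 6.30 ± 0.79 in Youli and 8.34 ± 0.73 in Iberian (adjusted p = 0.0928 in limma), whereas KIT, the stem cell factor receptor that mast cells also carry, averaged 7.12 ± 0.41 in Large White, 4.83 ± 0.66 in Duroc, 6.96 ± 1.01 in Youli and 5.34 ± 0.61 in Iberian (adjusted p = 0.05002 in limma, just over the threshold, and 0.0239 without YLM19). KIT was named after its values were seen, beside MS4A2, as were SLC2A5, SCD and LEP below.

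**Figure D4:**
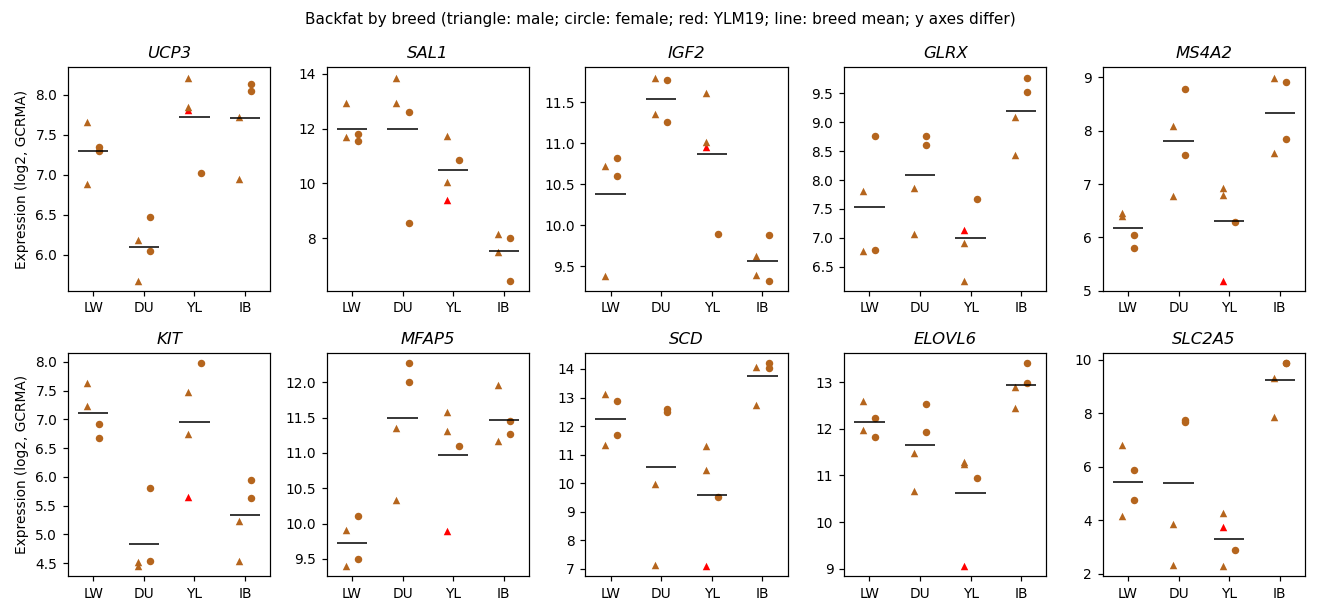
Expression (log2, y axis, scale differs by panel) in backfat by breed for 10 genes, triangles for males, circles for females, red for YLM19 and lines for breed means. Iberian pigs are lowest for SAL1 (7.53) and highest for SCD (13.76) and SLC2A5 (9.23), while none of the 10 genes shown passed the breed test over all 16 arrays.

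Sex gave 12 of 23999 probesets (0.05%), 1 gene with a symbol (0.0148%) and 0 of the 335, where 538 probesets had an unadjusted p under 0.05 in limma. The 1 gene was the Y-linked EIF1AY, 6.32 ± 0.11 (SE) higher in males. The comparison rests on 9 males and 7 females, and differences smaller than the spread between animals could not be seen.

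The widest spread among the genes of fat synthesis was that of SCD, and ELOVL6, ME1, FASN and DGAT2 of the same list varied with it across pigs. The other members of the list, such as PCK1, were not set against SCD. SCD averaged 12.25 ± 0.89 in Large White, 10.55 ± 2.57 in Duroc, 9.58 ± 1.81 in Youli and 13.76 ± 0.68 in Iberian (SD, n = 4 each), and breed did not pass (adjusted p = 0.167 in limma). The lowest values were 7.09 in YLM19 and 7.14 in DUM15, and the highest was 14.21 in an Iberian pig. Over the 15 arrays without YLM19, ELOVL6 correlated with SCD at r = 0.934 (permutation p = 2e-05, adjusted 4e-05) and rho = 0.946 (permutation p = 2e-05, adjusted 6e-05), where 2e-05 is the smallest p that 100000 permutations can give. ME1 gave r = 0.915 and rho = 0.943, both with a permutation p of 2e-05 (adjusted 4e-05 and 6e-05). SLC2A5 gave r = 0.876 (permutation p = 2e-05, adjusted 4e-05) and rho = 0.900 (permutation p = 4e-05, adjusted 8e-05). FASN gave r = 0.805 (permutation p = 0.00038, adjusted 0.00057) and rho = 0.754 (permutation p = 0.00186, adjusted 0.00279). DGAT2 gave r = 0.790 (permutation p = 0.00132, adjusted 0.00158) with a weaker rank correlation of rho = 0.536 (permutation p = 0.0423, adjusted 0.0508), which missed 0.05 after adjustment. LEP gave r = 0.338 (permutation p = 0.21, adjusted 0.21) and rho = 0.450 (permutation p = 0.0978, adjusted 0.0978). Without DUM15 and YLF21, the arrays farthest from the median of SCD, r was 0.924 for ELOVL6, 0.879 for ME1, 0.893 for SLC2A5, 0.693 for FASN, 0.655 for DGAT2 and 0.521 for LEP. As deviations from the breed means, r was 0.910, 0.864, 0.890, 0.899, 0.938 and 0.143 in the same order. The permutation p-values belong to the correlations over all breeds together, so differences between breeds enter them. No p is given for the deviations. With all 16 arrays, r was 0.939 for ELOVL6, 0.938 for ME1, 0.838 for SLC2A5, 0.832 for FASN and 0.850 for DGAT2, with rho of 0.956, 0.953, 0.894, 0.797 and 0.615 (all 10 adjusted permutation p at most 0.0168). LEP then gave r = 0.392 (permutation p = 0.12, adjusted 0.12) and rho = 0.5265 (permutation p = 0.0379, adjusted 0.0379), so its rank relation passed 0.05 with YLM19 and not without it. These 6 relations are 2-sided and were chosen after the values were seen.

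**Figure D5:**
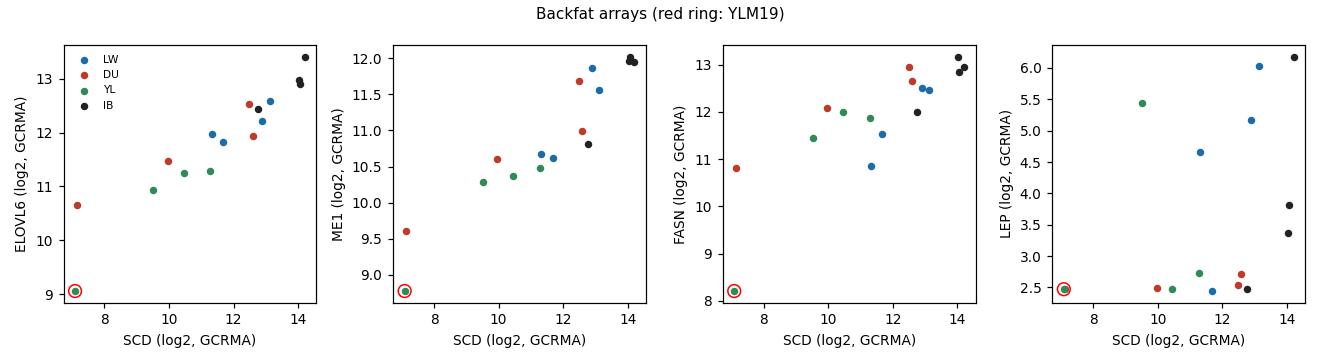
Expression (log2) of ELOVL6, ME1, FASN and LEP (y axes, scales differ) against SCD (x axis) in the 16 backfat arrays, coloured by breed, with YLM19 ringed in red. ELOVL6, ME1 and FASN rise with SCD (r = 0.934, 0.915 and 0.805 over the 15 arrays without YLM19), and LEP gave r = 0.338 over the 15 arrays and rho = 0.5265 over all 16.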

How the data were processed

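RNA of 16 backfat samples and of 4 other tissues of the same pigs was hybridised to the Affymetrix Porcine GeneChip, with 1 array per sample. The deposited table holds log2 values that the authors made by GCRMA over all 80 arrays together, so background and between-array scale were set across tissues. GCOS is named in the submitters' processing notes, and detection calls were not used here. The number of arrays limits the precision.

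Groups came from the sample titles. For 11 of 16 thyroid arrays the breed or sex field conflicted with the title, and the title was used. Of 24123 probesets 124 controls were left out. Of the 23999 kept, 10069 carried 1 symbol in the platform annotation, 198 several and 13732 none. Of the 10069, 9961 matched RefSeq by gene ID and no symbol changed. They gave 6765 genes, each represented by its probeset of highest mean.

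limma 3.58.1 in R 4.3.3 fitted 6 groups with breed and sex over 80 arrays, with empirical Bayes moderation and Benjamini-Hochberg adjustment over 23999 probesets in each comparison. Breed and sex within backfat were fitted over the 16 backfat arrays. Calls across tissues needed an adjusted p under 0.05 and a difference of at least 1. The code was tested on simulated data. Permutation tests used scipy 1.17.1.

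Titles give the animal, so arrays of different tissues are paired by animal. Deviations of backfat arrays from their group mean correlated with those of the same animal at 0.221 on average for the hypothalamus, 0.258 for the adenohypophysis, 0.256 for the thyroid and 0.121 for the gonad. With those of other animals the averages were -0.014, -0.0164, -0.0165 and -0.0074 in the same order. The deviations were taken from group means, so the breed of the animal can enter these values.

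Genes were named as the 15 of largest and the 10 of most negative difference from the nearest group, up to 4 called members of each list in each direction, the members of the fat lists where needed, the 10 higher genes of largest breed F, and the 10 genes farthest above the other arrays in YLM19. Members and lists were chosen with earlier results of these data known. The alternatives changed the block, covariates, scaling, filter, size of the call, probeset, samples in the fit and arrays left out. Leaving out the 5 or 7 backfat arrays, the 3 thyroid arrays and each backfat array in turn was chosen after seeing the data.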

Additional observations from a re-analysis of the deposited data

Results flagged for a closer look

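In 88 groups of 4 to 10 arrays the highest or lowest array was set against the others by Dixon's test, which chance passes in about 1 in 20 groups, and 11 groups passed. Among the Youli pigs, ZBP1 was at 3.88 in YLM18, and YLM19 was far below the others at 9.06 for ELOVL6 and 8.21 for FASN, while YLF21 was far above them for LEP at 5.44. PDHA1 stood apart at 8.68 in LWM02 and at 8.21 in DUM15. IGF2 was at 9.39 in LWM02, below the other Large White pigs. SCD was at 12.75 in IBM24, below the other Iberian pigs, and KIT was at 5.81 in DUF13, above the other Duroc pigs. Outside backfat, PTGER3 was at 5.36 in the testis of IBM24 and PPARG at 2.79 in the ovary of IBF25.

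Among the probesets that carry several symbols or none, and that no comparison by gene used, 351 of 13930 (2.52%) were higher in backfat than in every other tissue and 197 were lower. They are not named here.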

How the results depend on the processing

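With the animal as a block in place of breed and sex, which uses the pairing of tissues by animal, 335 genes were higher and 106 lower than in every other tissue, and the block moved no count by over 1.5 times. Requiring a difference of at least 2 left 618 higher and 520 lower genes against the hypothalamus, 586 and 413 against the adenohypophysis, 361 and 297 against the thyroid, 452 and 384 against the testis, 348 and 371 against the ovary, and 128 and 36 against every other tissue. With no minimum difference the counts were 3128 and 2051, 2724 and 2256, 2471 and 2166, 2283 and 2391, 2314 and 2176, and 1032 and 494 in the same order. Testing against a difference of 1 (limma treat) gave 634 and 622 for the testis, 501 and 531 for the ovary and 203 and 57 for every other tissue. These settings raise or lower the bar for a call by construction.

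The counts against every other tissue stayed within 1.5 times under the other alternatives, from 313 to 408 higher and from 85 to 111 lower, with both 408 and 85 from centring arrays on their median. Of 980 values for 98 named genes under 10 alternatives, 968 kept direction and call, 12 lost the call and 0 turned. Most of these genes were named for being called or for large differences, so this share was largely set by the choice. Over all calls, a fit of only the compared groups kept 308 of the 335 higher and 105 of the 106 lower genes. Centring kept 335 and 85. ACAA2 fell to 0.98 under quantile normalization. Without the 5 arrays MYH2 was at 0.82, MYL1 at 0.61, MYLPF at 0.43 and ACTN2 at 0.31, and without the 7 arrays at 0.49, 0.12, 0.17 and 0.33.

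Breed calls within backfat were the least steady: 298 probesets without sex in the model, 593 with trend and robust moderation, 61 without the 5 arrays, 3 without the 7 arrays, and 48 to 414 when single arrays were left out. Apart from the test size, the causes were not tested. Values near background limit what differences among dim genes can show.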
